A study of Mus musculus with 12 samples.

Results

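The genes described here encode 7 nuclear receptors measured in the day 7 thymic epithelium/stroma of the FCG mouse, a cross in which gonad type and sex chromosomes are inherited apart: the estrogen receptors alpha and beta (Esr1 and Esr2), the progesterone receptor (Pgr), the mineralocorticoid receptor (Nr3c2) and the estrogen-related receptors alpha, beta and gamma (Esrra, Esrrb and Esrrg). They were chosen by name, with earlier results of these data known. They are 7 of the 19938 genes that had a probe set with a single gene symbol, and each had 1 such probe set among the 35556 on the array. RNA of 12 arrays from day 7 pups was compared, 2 from XYM, 4 from XXM, 3 from XYF and 3 from XXF. In FCG mice, here on a C57BL/6J background, Sry has been deleted from the Y chromosome and put back as an autosomal transgene, so the gonadal males XYM and XXM carry the transgene and the gonadal females XYF and XXF do not, and either gonad occurs with either pair of sex chromosomes. No group received a hormone or an inhibitor, and the tissue was what remained of the thymus after thymocytes had been washed out 5 times.

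Estrogen, progesterone and mineralocorticoid receptors are transcription factors that are switched on by a steroid, dissociate from chaperones and bind DNA as dimers. The estrogen receptors recognise a palindrome built on GGTCA, whereas the progesterone and mineralocorticoid receptors share with the glucocorticoid and androgen receptors a palindrome built on AGAACA. The estrogen-related receptors resemble the estrogen receptors in sequence but bind no estrogen, recognise AAGGTCA, work with the coactivators of the Ppargc1 family and are known above all as activators of mitochondrial genes. In the thymus estradiol is known to affect thymocyte number, and both stromal cells and thymocytes have been described as targets of sex steroids.

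The signals were the authors' linear intensities, and log2 differences came from limma, with the Benjamini-Hochberg adjustment made across the whole table of 35556 and a threshold of 0.05. On the arrays from males Sry had a signal of 2524 to 2836, against 416 to 565 on those from females, and Xist and the Y-linked Eif2s3y followed the labels on all 12 arrays. Epithelial markers were bright, with 8 of 8 above the limit set by silent genes (described below with the receptors) and a summed signal of 13797 to 17396 in males and 14884 to 18334 in females. Thymocyte markers were bright as well, with 7 of 7 above that limit and a summed signal of 25273 to 28305 in males and 25083 to 29592 in females, so a receptor signal here cannot be assigned to epithelium, other stroma or thymocytes. In RNA from mixed tissue, fewer cells that express a gene and less RNA per cell cannot be told apart. The sources do not say whether each array held a separate pup, so each p-value rests on the spread among the arrays, which may be partly technical.

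Of the 7 receptors, Esrra alone had a mean signal above a limit set by genes assumed to be silent in this tissue. The deposited table held no detection call, so 1035 probe sets of olfactory receptors, genes of the nose taken to be silent in the thymus, were used in its place. Their mean signals had a median of 107.0 and a 95th percentile of 309.5, called the olfactory limit below. An absent gene can exceed this limit: Sry read 416 to 565 on the arrays from females, which lack it. Esrra, at 528 to 674 over the 12 arrays, overlapped those values. A signal above the limit thus does not by itself show expression. Because probe sets differ in how strongly they bind, each receptor was set against this reference and the receptors were not ranked against each other.

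Esrra, the estrogen-related receptor expressed in most tissues, had a signal of 593 ± 46.5 (SD, n = 12 arrays), above 99.8% of the olfactory probe sets, and exceeded the olfactory limit of its own array on all 12 arrays. Esr1 averaged 284 ± 19.5 (SD, n = 12), above 93.7% of the olfactory probe sets. Its signal passed the olfactory limit of its own array on only 2 arrays, XYM array 1 and XXF array 3, so on 10 arrays the estrogen receptor alpha could not be told from the brightest of the silent genes. Vomeronasal receptors are another family of sensory genes, and the 95th percentile of their 175 probe sets, the vomeronasal limit, was dimmer at 172.9. Esr1 lay above the vomeronasal limit of its own array on all 12 arrays.

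The other 5 receptors stayed below the olfactory limit on every array. Esrrg, the estrogen-related receptor known from heart, brain and kidney, averaged 213 ± 21.1, and Nr3c2 averaged 179 ± 14.6 (SD, n = 12 each). Both means were above the vomeronasal limit but below the olfactory one, at the 87.6th and the 79.9th percentile of the olfactory probe sets. Pgr at 124 ± 22.9, Esr2 at 114 ± 15.5 and Esrrb, which is known from embryonic stem cells, at 97.4 ± 16.1 (SD, n = 12 each) lay near the middle of the reference, at its 59.5th, 53.6th and 44.9th percentile. The mean signal thus stood above the olfactory limit for 1 of 7 receptors, above the 90th percentile of the same probe sets for 2, and above the vomeronasal limit for 4. A signal inside the reference does not show that a gene was silent, since a low level was not detectable on these arrays.

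**Figure D1:**
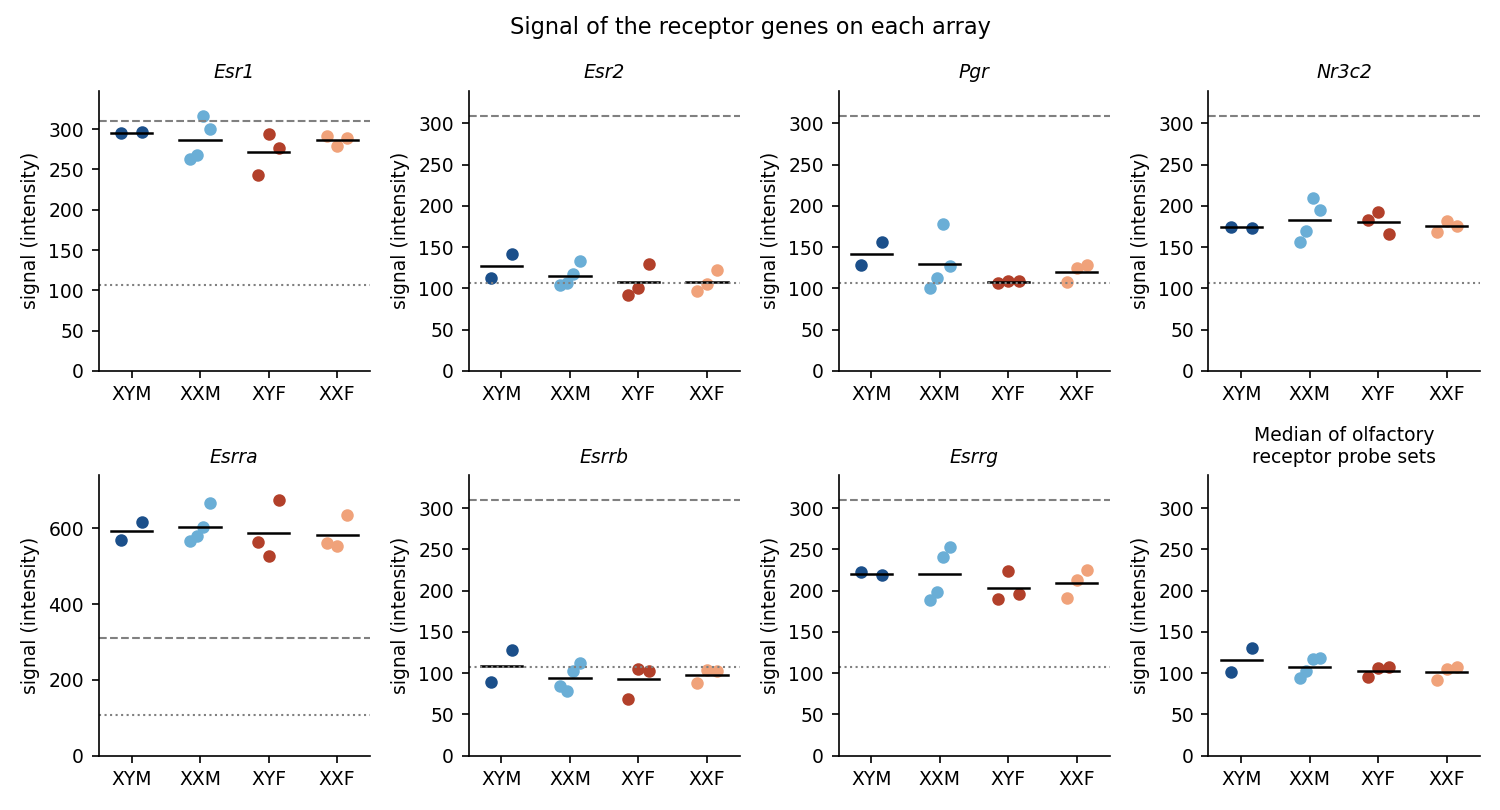
Signal (intensity, linear axis from 0) of the 7 receptors and of the median olfactory receptor probe set on each array, by genotype (XYM n = 2, XXM n = 4, XYF n = 3, XXF n = 3). Points are arrays, bars are group means, and the dotted and dashed lines are the olfactory median and limit (107.0 and 309.5). Only the Esrra points all lie above the dashed line, and gonadal males and females overlap in every panel.

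No receptor passed the adjusted threshold for gonadal sex, for sex chromosome complement or for their interaction. For males against females 0 of 7 receptors passed, where 0.00281% of all probe sets did, and 0 of 7 had an unadjusted p below 0.05, where 3.03% did. For XY against XX the count was 0 of 7 after adjustment (0.0366% of all probe sets) and 0 of 7 before it (2.55%). The interaction and the F test over the 4 genotypes also called 0 of 7, both after adjustment (0% and 0.0281% of all probe sets) and before it (1.54% and 1.99%). The 95% intervals of the ratio of males to females, taken over the 7 receptors in the model of the 4 genotypes, reached from 0.856 to 1.43. For the 6 receptors with a mean below the olfactory limit these are intervals of the signal and do not bound a difference in expression.

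Among the estrogen receptors, Esr1 had signals of 294.9 and 296.1 in XYM, 262.8, 268.2, 316.3 and 300.5 in XXM, 243.1, 293.6 and 276.5 in XYF, and 291.7, 279.2 and 288.6 in XXF. Males and females overlapped over most of their range, and the lowest array was XYF array 4. Esr1 averaged 289.8 ± 20.4 in males and 278.8 ± 18.8 in females (SD, n = 6 each), with a log2 difference of 0.06 (SE 0.07, adjusted p = 0.985 in limma). Between XY and XX arrays its log2 difference was -0.02 (SE 0.07), and in the 4 genotypes its means differed by less than the spread within XXM or XYF.

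Esr2 had signals of 112.7 and 141.9 in XYM, 103.8, 107.1, 117.4 and 133.3 in XXM, 92.2, 100.3 and 130.1 in XYF, and 97.0, 105.9 and 121.8 in XXF. The groups overlapped, and in each genotype the highest array was the one with the highest array number. Its mean was 119.4 ± 15.1 in males and 107.9 ± 14.9 in females (SD, n = 6 each), a log2 difference of 0.17 (SE 0.11, adjusted p = 0.985 in limma). Leaving out 1 array at a time gave values from 0.09, without XYM array 9, to 0.25, without XYM array 1. The XYM mean of 127.3 ± 20.7 (n = 2) and the XXM mean of 115.4 ± 13.3 (n = 4) lay above the XYF mean of 107.5 ± 19.97 (n = 3) and the XXF mean of 108.2 ± 12.5 (n = 3), with each step in this order within the SD of XXM.

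The progesterone receptor, which estrogen induces in the uterus and mammary gland, had a signal within the reference. Pgr had signals of 127.9 and 156.8 in XYM, 100.8, 112.8, 178.5 and 127.4 in XXM, 106.1, 108.9 and 109.2 in XYF, and 108.1, 124.7 and 128.5 in XXF. XXM array 6 stood apart from the other XX arrays. Males averaged 134.1 ± 28.8 and females 114.3 ± 9.69 (SD, n = 6 each), a log2 difference of 0.23 (SE 0.13, adjusted p = 0.985 in limma). Without XXM array 6 this difference was 0.15, and with the covariate and the block described below it turned to -0.08. The log2 difference was 0.39 between XYM and XYF and 0.08 between XXM and XXF, and the interaction of 0.31 (SE 0.26) did not pass (adjusted p = 1.00 in limma).

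XXM array 6 carried the highest signal of Esr1, Pgr and Nr3c2. The same array had the highest summed signal of 4 skeletal muscle markers, 2343, against 785 to 1353 on the other 11 arrays. Its median olfactory receptor signal was 117.6, against 102.1, 106.0 and 104.7 on XXM array 5, XYF array 8 and XXF array 7. Only XYM array 9 (130.7) and XXM array 10 (118.2) had a higher one. The part of muscle RNA in these receptor values was not tested.

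Nr3c2, the receptor for aldosterone that also binds corticosterone, had signals of 174.8 and 173.3 in XYM, 156.0, 169.9, 209.4 and 195.5 in XXM, 182.7, 192.8 and 166.3 in XYF, and 168.9, 181.3 and 175.9 in XXF. XXM held both the lowest and the highest array, and males and females overlapped fully. It averaged 179.8 ± 19.2 in males and 178.0 ± 9.76 in females (SD, n = 6 each), with a log2 difference of -0.00 (SE 0.08, 95% interval -0.18 to 0.18, adjusted p = 1.00 in limma). Its most negative value among the alternatives was -0.17, with the covariate and the block described below (unadjusted p = 0.0873 in limma).

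Esrra had signals of 570.2 and 615.8 in XYM, 565.3, 578.8, 604.6 and 666.3 in XXM, 563.6, 528.0 and 674.0 in XYF, and 560.1, 552.2 and 635.9 in XXF. The XYF arrays held both the lowest and the highest value, so the groups overlapped fully. Males averaged 600.2 ± 37.9 and females 585.6 ± 56.4 (SD, n = 6 each), a log2 difference of 0.03 (SE 0.08, 95% interval of the ratio 0.909 to 1.15, adjusted p = 0.987 in limma). For XY against XX arrays the log2 difference was -0.01 (SE 0.08, 95% interval of the ratio 0.883 to 1.12).

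The other estrogen-related receptors gave the same picture at dimmer signals. Esrrg ranged over 188.2 to 253.1 in males and 189.6 to 225.0 in females, with a log2 difference of 0.09 (SE 0.09, adjusted p = 0.985 in limma). Esrrb ranged over 78.3 to 128.1 in males and 69.1 to 105.2 in females, with a log2 difference of 0.09 (SE 0.14, adjusted p = 0.985 in limma). In Esrrb the spread between arrays was larger than for 89.2% of all probe sets, as a residual SD of 0.27 on the log2 scale, whereas Esr1 with 0.11 was among the steadier probe sets (20.9th percentile).

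**Figure D2:**
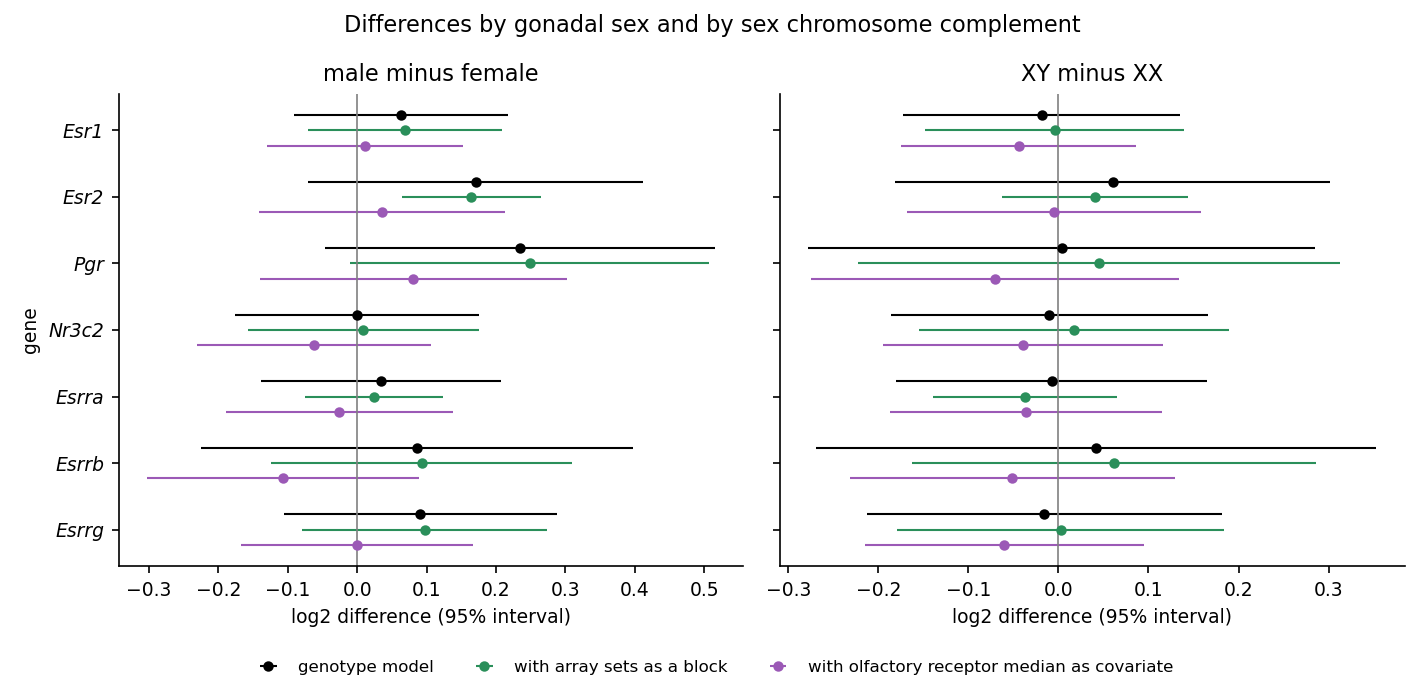
Log2 differences with 95% intervals for males minus females (left) and XY minus XX (right), for each of the 7 receptors, from the model of the 4 genotypes, that model with a block for the array sets, and that model with the median olfactory receptor signal as a covariate. Each interval includes 0 except that of Esr2 in the left panel with the array sets as a block, and the Esr2 point in that panel lies at 0.04 with the covariate and at 0.17 in the model of the 4 genotypes.

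The 12 arrays are numbered in the labels. Taken in sets of 4 by number (1 to 4, 5 to 8, 9 to 12), 2 arrays of every set came from gonadal males and 2 from gonadal females. These sets were formed from the numbers alone, since the labels do not name them as batches. Esrra and Esr2 followed them: on each of arrays 9 to 12 the signal was above that on each of arrays 1 to 8, at 616 to 674 against 528 to 605 for Esrra and 121.8 to 141.9 against 92.2 to 117.4 for Esr2. Such a separation occurred for 2 of 7 receptors and for 4.36% of all probe sets. The summed signal of the epithelial markers lay between 13797 and 15887 on arrays 9 to 12, against 15249 to 17415 on arrays 5 to 8 and 16687 to 18334 on arrays 1 to 4, and its part in the receptor values was not tested.

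With the array sets as a block, the sex difference of Esr2 passed an unadjusted p of 0.05 but not the adjusted threshold. The residual SD of Esr2 was 0.06 with the block and 0.20 without it, and the log2 difference of males minus females was 0.16 (SE 0.04, unadjusted p = 0.00499, adjusted p = 0.386 in limma). Esr2 was 1 of 7 receptors at this unadjusted level, where 11.5% of all probe sets were, and 0 of 7 receptors passed after adjustment (0.00281% of all probe sets). Within the sets the log2 difference was 0.19, 0.12 and 0.13, and in each of the 3 sets both males were above both females. This order, counted only with males above females, was met by 1 of 7 receptors and by 0.88% of all probe sets. The share ordered in either direction is not given here. Over all 12 arrays the males and females overlapped for every receptor, as did XY and XX arrays (0 of 7 each, against 0.0731% and 0.166% of all probe sets without overlap).

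The dim receptors are those with a mean below the olfactory limit. Of these, Esr2, Esrrb, Pgr and Esrrg moved most closely with the median of the olfactory receptor probe sets on the same array. That median was 110.7 ± 13.6 in males and 102.1 ± 7.03 in females (SD, n = 6 each), with the highest value, 130.7, on XYM array 9. It also rose over the array sets, averaging 95.6 on arrays 1 to 4, 107.6 on arrays 5 to 8 and 116.0 on arrays 9 to 12. The block for the array sets and the olfactory median as a covariate are therefore not independent of each other. Across the 12 arrays, Pearson's r of the log2 signal with this median was 0.85 for Esr2, 0.83 for Esrrb, 0.79 for Pgr and 0.72 for Esrrg, against 0.61 for Esr1, 0.55 for Esrra and 0.47 for Nr3c2. The median r was 0.80 over the olfactory receptor probe sets themselves and 0.03 over all probe sets, and the points share the array and its normalization. With the median as a covariate, an alternative chosen after seeing the data, the log2 difference of males minus females was 0.04 for Esr2 (SE 0.08), 0.08 for Pgr (SE 0.10) and -0.11 for Esrrb (SE 0.09). With the covariate and the block together it was 0.14 for Esr2 (unadjusted p = 0.0872 in limma), while it was negative for the other 5 dim receptors, at -0.08 for Pgr, -0.09 for Esrrb, -0.04 for Esrrg, -0.01 for Esr1 and -0.17 for Nr3c2.

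**Figure D3:**
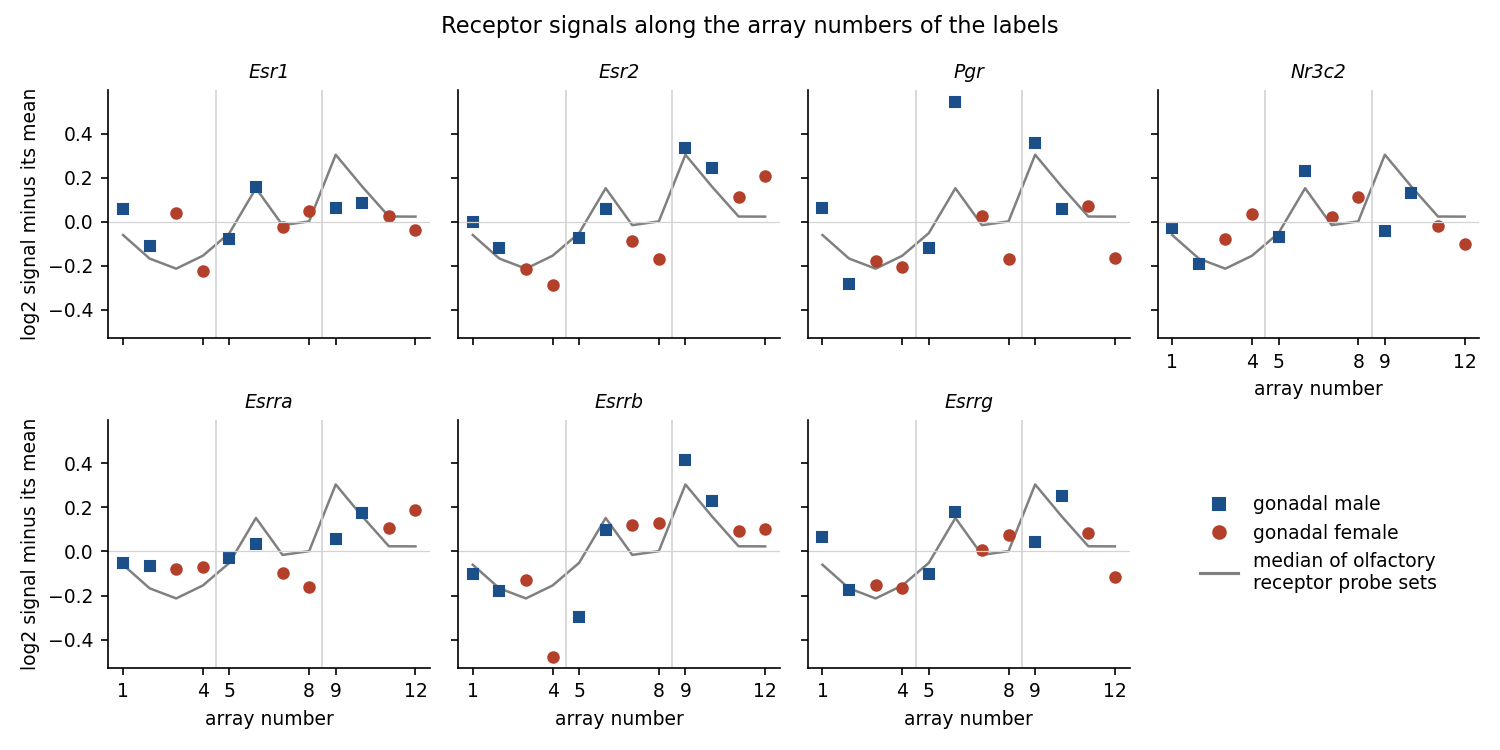
Log2 signal of each receptor minus its mean over the 12 arrays, along the array numbers of the labels; squares are gonadal males, circles gonadal females, the grey line is the median of olfactory receptor probe sets treated the same way, and vertical lines part arrays 1 to 4, 5 to 8 and 9 to 12. Esr2 and Esrra are highest on arrays 9 to 12, and within each set both Esr2 squares lie above both circles.

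The genes whose pattern over the 12 arrays was most like that of Esrra, among 11271 genes above the olfactory limit, were Hdac10 (Pearson's r 0.957, Spearman's rho 0.874), a histone deacetylase family member, Gdpd3 (r 0.929, rho 0.888) and Acaa1a (r 0.924, rho 0.930), a peroxisomal thiolase of fatty acid oxidation. These values describe 12 shared arrays and carry no test. The step of Esrra between arrays 1 to 8 and arrays 9 to 12, met by 4.36% of all probe sets, was not removed before they were computed.

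Around the receptors, 60 genes in 8 lists were considered: other steroid receptors, membrane receptors of estrogen and progesterone, coregulators, chaperones, and genes known to respond to estrogen, progesterone, mineralocorticoids or estrogen-related receptors. Of these 50 were measured, and 0 of 50 were called for sex or for chromosome complement. For males against females 0 of 50 had an unadjusted p below 0.05 (3.03% of all probe sets), and the median log2 difference was -0.01, against 0.00 over all probe sets. For XY against XX 1 of 50 had an unadjusted p below 0.05 (2.55% of all probe sets), with a median of -0.01 against 0.01 over all probe sets. Once the array sets were a block, the unadjusted count was 2 of 50 for sex (11.5% of all probe sets) and 3 of 50 for chromosome complement (2454 of all 35556 probe sets), and 0 of 50 passed after adjustment.

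Nr3c1, the glucocorticoid receptor, had 1500.5 ± 130 (SD, n = 12), above 100% of the olfactory probe sets, with a log2 difference of -0.01 (SE 0.08) between males and females. Of the 8 membrane receptors 5 had a mean above the olfactory limit, among them Pgrmc2, a heme-binding membrane protein of the progesterone receptor membrane component family, at 724 ± 39.0 (SD, n = 12). Paqr7, a membrane progestin receptor, was below it at 211 ± 10.7 and had a log2 difference of -0.09 (SE 0.06) between males and females, and of -0.10 once the array sets were a block (unadjusted p = 0.0281, adjusted p = 0.408 in limma).

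Coregulators and chaperones were bright, with 7 of 8 and 5 of 5 above that limit. The exception was Ppargc1a, the cold- and exercise-induced coactivator of the estrogen-related receptors, which ranged over 113 to 527 in males and 106 to 188 in females, its highest value being on XXM array 10. Its log2 difference was 0.31 with an SE of 0.33. Among the chaperones, which hold steroid receptors in a form able to bind hormone, 0 of 5 passed in either comparison, and their log2 differences of XY minus XX ran from -0.17 for Hsp90aa1 to -0.09. In that comparison 0 of 5 chaperones, 0 of 8 coregulators and 0 of 7 thymocyte markers had a difference above 0, where 52.6% of all probe sets did, and the part of thymocyte RNA in this was not tested.

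Of the 8 measured estrogen response genes 3 had a log2 difference of males minus females above 0, where 51.3% of all probe sets did, and 0 passed. Greb1, an estrogen-induced cofactor of the estrogen receptor, had 180.3 ± 8.43 on XY arrays (SD, n = 5) and 196.9 ± 12.2 on XX arrays (SD, n = 7), below the olfactory limit. Its log2 difference of XY minus XX was -0.13 (SE 0.06, adjusted p = 1.00 in limma). Of the 5 progesterone response genes 4 had such a difference above 0, against the same 51.3%, and 0 passed. Hand2, a transcription factor that progesterone induces in the uterine stroma, had 162.4 ± 13.7 in males and 145.5 ± 13.6 in females (SD, n = 6 each), below the olfactory limit. Its log2 difference was 0.17 (SE 0.08, adjusted p = 0.985 in limma), and 0.18 once the array sets were a block (unadjusted p = 0.00763, adjusted p = 0.386). Of the 7 mineralocorticoid response genes 4 were above 0 in males and 0 passed, the lowest unadjusted p being that of Scnn1a, a subunit of the epithelial sodium channel, with a log2 difference of -0.18 (SE 0.10).

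The targets of estrogen-related receptors were bright in 7 of 8 cases. Between XY and XX arrays 0 of 8 passed the adjusted threshold, and 1 of 8 had a log2 difference above 0, where 52.6% of all probe sets did, with a median of -0.17 against 0.01 over all probe sets. Atp5b, a subunit of the mitochondrial ATP synthase, had signals of 4132 and 3334 in XYM, 3578, 3990 and 3410 in XYF, 4280, 4155, 4278 and 4130 in XXM, and 4229, 4396 and 3649 in XXF. The XY arrays averaged 3689 ± 355 (SD, n = 5) and the XX arrays 4160 ± 242 (SD, n = 7), with ranges of 3334 to 4132 and 3649 to 4396 that overlapped. Its log2 difference was -0.17 (SE 0.08, unadjusted p = 0.0454, adjusted p = 1.00 in limma). Of the 7 thymocyte markers 0 had a log2 difference above 0 in this comparison, with a median of -0.12. The median was -0.21 over 4 fat cell markers (1 above 0), -0.13 over 5 mesenchyme markers (2 above 0) and 0.10 over 8 thymic epithelium markers (7 above 0). Over 4 skeletal muscle markers it was -0.09 (2 above 0). Acadm and Idh3a were highest on XXM array 6, the array with the highest sum of muscle markers, whereas Atp5b was highest on XXF array 7. In each of these marker lists 0 were called, and the part of these cells in the values of the targets was not tested. Esrra itself had a log2 difference of -0.01.

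**Figure D4:**
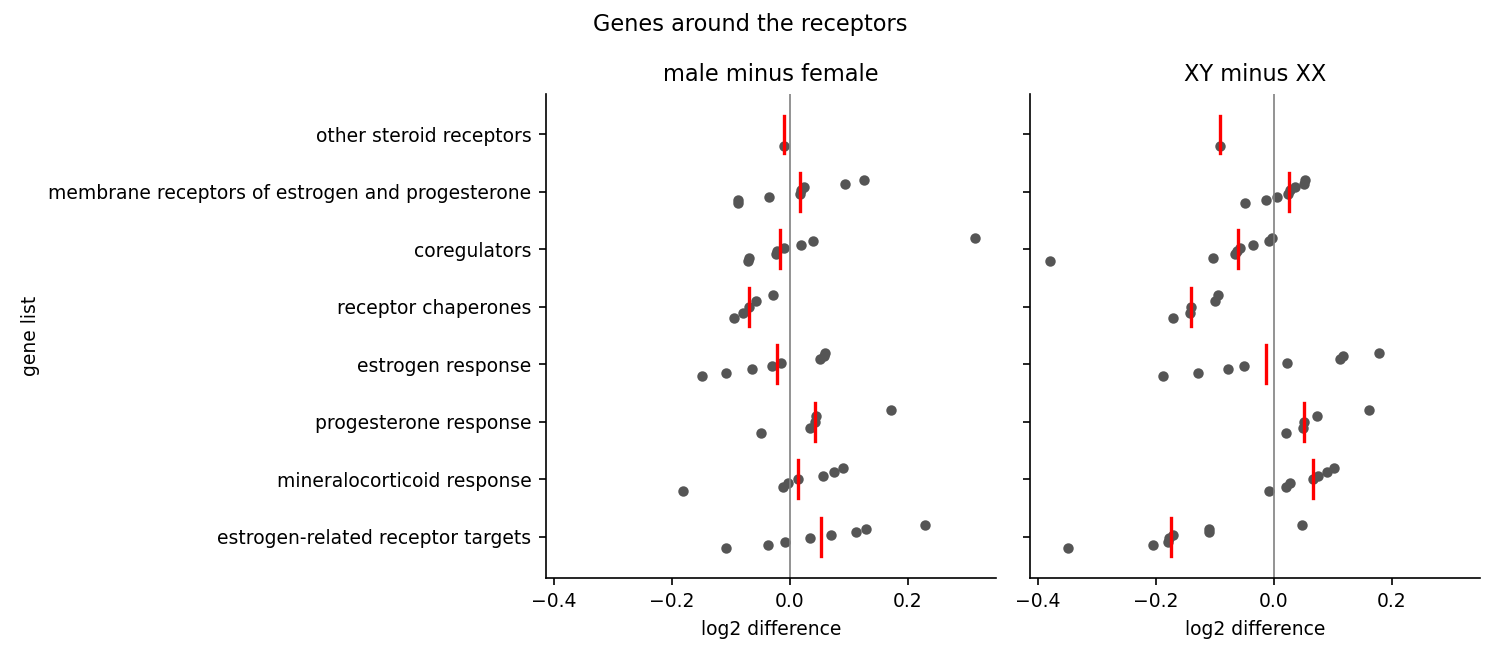
Log2 differences of the 50 measured genes in the 8 lists around the receptors, for males minus females (left) and XY minus XX (right); points are genes and red bars are list medians. Most lists straddle 0 in the left panel. In the right panel 0 of 8 coregulators, 0 of 5 chaperones and 5 of 5 progesterone response genes lie above 0, where 52.6% of all probe sets did. The 8 targets of estrogen-related receptors have a median of -0.17 there, with 1 gene above 0.

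The promoters of the receptors and of the listed genes were searched for the DNA motifs that these receptors bind, in RefSeq windows of the GRCm38.p6 assembly from 250 bases before to 50 bases after a start site. Both strands were searched for AAGGTCA, for the estrogen response element core (an inverted repeat of GGTCA around 3 bases) and for the steroid response element (an inverted repeat of AGAACA around 3 bases). The letters GGTCA belong to the first 2 of these motifs, which can therefore overlap. All 7 receptors had a window, and 0 of their 12 windows held any of the 3 motifs, which occurred in 4.72%, 0.0700% and 0.00913% of all 32851 windows. The steroid response element occurred in 1 of 13 windows of mineralocorticoid response genes. AAGGTCA occurred in 1 of 6 windows of estrogen-related receptor targets. Each of the 3 motifs occurred in 0 of 8 windows of estrogen response genes and 0 of 6 of progesterone response genes. Among the listed genes, 2 windows are shown with the matched letters in capitals, since they hold the motif of the receptor class under which the gene was listed. The first holds a steroid response element before a start site of Sgk1, the kinase that raises sodium uptake under aldosterone, at chr10:21993640-21993939 on the plus strand, and the second holds AAGGTCA before the start site of Acadm, the medium-chain acyl-CoA dehydrogenase, at chr3:153944594-153944893 on the minus strand, where the motif reads on the opposite strand.
Sgk1: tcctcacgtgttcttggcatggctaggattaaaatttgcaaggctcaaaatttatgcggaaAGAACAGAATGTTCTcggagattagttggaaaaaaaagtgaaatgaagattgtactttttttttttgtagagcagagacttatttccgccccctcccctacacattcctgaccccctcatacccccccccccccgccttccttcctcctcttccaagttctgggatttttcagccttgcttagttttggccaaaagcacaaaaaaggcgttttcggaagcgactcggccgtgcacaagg
Acadm: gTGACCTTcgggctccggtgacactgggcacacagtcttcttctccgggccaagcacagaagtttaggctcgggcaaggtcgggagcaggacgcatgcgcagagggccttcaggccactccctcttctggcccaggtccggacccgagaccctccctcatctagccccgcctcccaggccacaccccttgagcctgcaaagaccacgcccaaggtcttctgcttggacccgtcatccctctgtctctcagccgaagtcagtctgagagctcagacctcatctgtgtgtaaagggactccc
AAGGTCA was also found in 2 other windows of Sgk1 and in 1 of Paqr8, a membrane progestin receptor. A match describes letters and not a bound site. Sgk1 had a signal of 493.1 ± 47.4 in males and 504 ± 59.1 in females (SD, n = 6 each), and its log2 difference of XY minus XX was 0.10 (SE 0.09). Acadm had 1250.6 ± 195 in males and 1115 ± 56.2 in females (SD, n = 6 each), with its highest signal, 1628, on XXM array 6, and a log2 difference of 0.13 (SE 0.09, adjusted p = 0.985 in limma).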

How the data were processed

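RNA of day 7 thymic epithelium/stroma was hybridised to 12 Affymetrix whole-transcript mouse arrays. The authors deposited linear intensity values of 35556 probe sets; PLIER and Affymetrix Expression Console 1.1 stand in the submitters' notes but RMA with quantile normalization in the published methods, and the values were used as deposited. The sources do not settle which of these methods gave the deposited values. Groups came from the sample labels, and the number after each genotype in the labels is called the array number. Array medians lay between 327.5 and 345.5; the number of arrays limits the precision.

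Names of probe sets were those of the array's platform table, brought up to date with RefSeq gene identifiers (21789 with 1 symbol, 1621 with several, 12146 with none), and only those with 1 symbol were named, by the brightest per gene. The linear model of limma 3.58.1 (R 4.3.3), with moderated variances, was fitted to log2 intensities of all probe sets with the 4 genotypes as groups, after being tested on simulated data. The members and lists were chosen with earlier results of these data known. Named genes were all 7 receptors, up to 4 genes per list (the 2 lowest unadjusted p for sex and for complement), and the 3 genes most correlated with each receptor above the reference. Exact permutation tests were two-sided over 924 groupings by sex and 792 by complement. Other alternatives were renewed quantile normalization, an offset of 16, a minimum mean signal of 100, other models, weights, the array sets as a block and leaving out arrays. Of the listed genes, 10 were not analysed here.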

Additional observations from a re-analysis of the deposited data

Results flagged for a closer look

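Among the 35 groups of 4 to 7 arrays examined over the 7 receptors, 2 held an array that stood apart from the rest of its group. This is close to the rate of about 1 in 20 that chance gives, and the groups share arrays. For Esr1 in gonadal females, XYF array 4 had a signal of 243.1, against 276.5 on the nearest of the other 5 female arrays. For Pgr on XX arrays, XXM array 6 had a signal of 178.5, against 128.5 on the nearest of the other 6 XX arrays.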

How the results depend on the processing

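The count of called receptors, and of called genes in the lists around them, was 0 under each of the 25 or fewer alternatives run for sex, complement, interaction and the F test. The count of receptors above the reference was 1 with the limit at percentile 99 of the olfactory probe sets, 2 at percentile 90 and 4 with the vomeronasal limit. For males minus females, unadjusted p-values below 0.05 appeared for Esr2 with the array sets as a block (0.00499) and without XYF array 12 (0.0348), and for Pgr without XXM array 2 (0.0324), and 1 receptor reached that level for the interaction without XXM array 6. For sex, the share of all probe sets at that level was 3.03% in the model of the 4 genotypes and 11.5% with the block. The shares without single arrays are not given here, so those counts are not read as results about the receptors. No difference passed the adjusted threshold, and the cause of the changes of sign was not tested. The log2 difference of males minus females took the opposite sign at 6.0e-05 for Nr3c2 with 16 added before log2, at 0.0087 for Nr3c2 in the additive model, at 0.0090 for Nr3c2 with the array sets as a block, at 0.0099 for Nr3c2 as the difference of group means in the exact permutation test, at -0.026 for Esrra and -0.11 for Esrrb with the median olfactory receptor signal as a covariate, at -0.014 for Esr1, -0.085 for Pgr, -0.089 for Esrrb and -0.036 for Esrrg with that covariate and the block together, at -0.065 for Esrrb without XXM array 6 and XYM array 9 together. That of XY minus XX did so at -0.018 for Pgr and 0.0011 for Esrra after a renewed quantile normalization, at -0.0056 for Pgr in the additive model, at 0.00052 for Esr1, 0.010 for Nr3c2 and 0.017 for Esrrg with array weights, at 0.017 for Nr3c2 and 0.0024 for Esrrg with the array sets as a block, at -0.041 for Pgr as the difference of group means in the exact permutation test, at -0.0051 for Esr2, -0.070 for Pgr and -0.051 for Esrrb with the median olfactory receptor signal as a covariate, at -0.15 for Pgr and -0.045 for Esrrb with that covariate and the block together, at 0.0040 for Esr1, -0.018 for Esr2, 0.027 for Nr3c2, -0.064 for Esrrb and 0.013 for Esrrg without XXM array 6 and XYM array 9 together. Leaving out single arrays gave ranges that crossed 0 for males minus females, of -0.035 to 0.036 for Nr3c2, -0.0028 to 0.085 for Esrra and -0.042 to 0.22 for Esrrb, and for XY minus XX, of -0.049 to 0.019 for Esr1, -0.023 to 0.14 for Esr2, -0.070 to 0.086 for Pgr, -0.046 to 0.024 for Nr3c2, -0.058 to 0.030 for Esrra, -0.087 to 0.17 for Esrrb and -0.052 to 0.020 for Esrrg. The covariate and the joint removal of 2 arrays were chosen after seeing the data. No paired analysis was possible because the labels give each array a number of its own. A minimum mean signal of 100 removed Esrrb. Signals within the range of silent genes limit what can be said of 6 receptors, and Esrra overlapped the Sry signal of arrays from females.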
